A study of Mus musculus with 10 samples.

Results

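The MHC class II presentation machinery was followed in RNA sequencing of mouse alveolar macrophages, the resident phagocytes of the airspace. Members were the table rows whose gene symbol was one of 10 names, H2-Aa, H2-Ab1, H2-Eb1, H2-DMa, H2-DMb1, H2-DMb2, H2-Oa, H2-Ob, Cd74 and Ciita. All 10 were found, as 17 transcripts, among 26173 genes and 45913 transcripts. The level of a gene is the sum of its transcripts in FPKM, fragment counts scaled by transcript length and by the depth of the library, so that levels of genes of different length can be set side by side.

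The 10 samples formed 5 groups of 2, all labelled as alveolar macrophages of female C57BL/6 mice 16 weeks old. In the conditional line Bach2, a transcription repressor of lymphocytes and myeloid cells, carried floxed alleles and the Cre recombinase was under CD4 control, which is active in T cells, so that the macrophages themselves need not have lost the gene. The groups of this line were its control (samples 1 and 6), and macrophages of the knockout with control-like surface markers (the normal-marker group, samples 2 and 7) or with aberrant surface markers (the aberrant-marker group, samples 3 and 8). The remaining groups were wild-type mice (samples 4 and 9) and mice with a germline knockout of Bach2 (samples 5 and 10). The labels give no Cre-only or floxed-only allele for the control and no number of pooled animals. The marker fractions were chosen by surface phenotype, and class II molecules are themselves surface proteins. Which markers were used is not given in the sources used here, so levels in these fractions may follow from the choice.

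The samples of a group were nearly repeats of each other. Correlations of log2(FPKM + 1) values were 0.996 to 0.999 within and 0.845 to 0.929 between groups. Over genes at 1 to 10 FPKM, the median squared difference in estimated counts, divided by their sum, was 0.546 to 0.655, where sampling alone gives 0.455 and samples of different groups gave 58.5 to 93.1. They were therefore counted as 1 library per group, and the spread between them measures sequencing and not mice. With a single library on each side, no comparison could be tested, and the text prints no p-values. Depth was roughly 7.52 to 9.35 M fragments per sample (M for mega). Of 11 alveolar macrophage markers in the table, 11 were at 1 FPKM or more in the conditional control, normal-marker and wild-type libraries and 8 in the aberrant-marker and germline knockout libraries. Siglec5 and Cidec were under 1 FPKM in both of these, with Marco (0.258 FPKM) in the aberrant-marker and Ear1 (0.964 FPKM) in the germline knockout library. Bach2 was at most 0.0761 FPKM in any sample and could not check the genotypes. Against the labelled sex, the Y-linked gene Eif2s3y was at 60.8 FPKM in the wild-type and 39.9 FPKM in the germline knockout library, and Xist was present in the conditional line only (3.75 to 9.08 FPKM).

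MHC class II molecules present peptides from endocytosed proteins to CD4 T cells. An alpha and a beta chain (H2-Aa with H2-Ab1, forming I-A) assemble on the invariant chain Cd74, which blocks the peptide groove and guides the complex to the endosome. There H2-DM (H2-DMa with an H2-DMb chain) exchanges the remaining invariant chain fragment for peptide, and H2-O (H2-Oa with H2-Ob) inhibits H2-DM. Ciita is the transactivator that promoter-bound factors recruit to switch these genes on together. C57BL/6 mice lack a working alpha chain of I-E, so that H2-Eb1 is transcribed but its protein has no partner. H2-Ea-ps, the entry of that alpha chain, was listed at 0 in all 10 samples.

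The classical chains were highest in the aberrant-marker library and lowest in the wild type. H2-Aa, the alpha chain of I-A, was at 1392 and 1386 FPKM in the samples of the conditional control, 1356 and 1370 in the normal-marker, 6021 and 5992 in the aberrant-marker, 341 and 348 in the wild-type and 686 and 700.0 in the germline knockout library. The conditional control and normal-marker libraries were 1.02-fold apart, and each of the other steps in this order was 1.97-fold or more. H2-Ab1, its beta chain, measured 1575 and 1576 FPKM in conditional control samples, 1460 and 1476 with normal markers, 5513 and 5609 with aberrant markers, 469 and 466 in wild-type samples and 866 and 880 in germline knockouts, the same order of groups as for H2-Aa. H2-Eb1, the I-E beta chain, measured 405 and 400.0 FPKM in conditional control samples, 469 and 463 with normal markers, 2801 and 2879 with aberrant markers, 117 and 115 in wild-type samples and 431 and 431 in germline knockouts. Its 3 middle libraries lay within 1.16-fold of each other, while the aberrant-marker library was 6.09-fold above the next. For none of these chains did the samples of different groups overlap.

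The invariant chain Cd74 was the most abundant gene of the aberrant-marker library, at rank 1 in both samples. It measured 8715 and 8675 FPKM in conditional control samples, 9279 and 9393 with normal markers, 21984 and 21881 with aberrant markers, 3104 and 3179 in wild-type samples and 3088 and 3096 in germline knockouts. The wild-type and germline knockout libraries were 1.02-fold apart. Of the 2 Cd74 transcripts, the shorter (1224 bases) carried 73.6% of the level in the aberrant-marker library and 64.5% to 68.2% in the other 4, as estimated by the authors' quantification. All 10 members together made up 5.54% of the summed FPKM of the aberrant-marker library, 1.98% of the conditional control, 2.04% of the normal-marker, 0.740% of the wild type and 0.793% of the germline knockout.

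**Figure D1:**
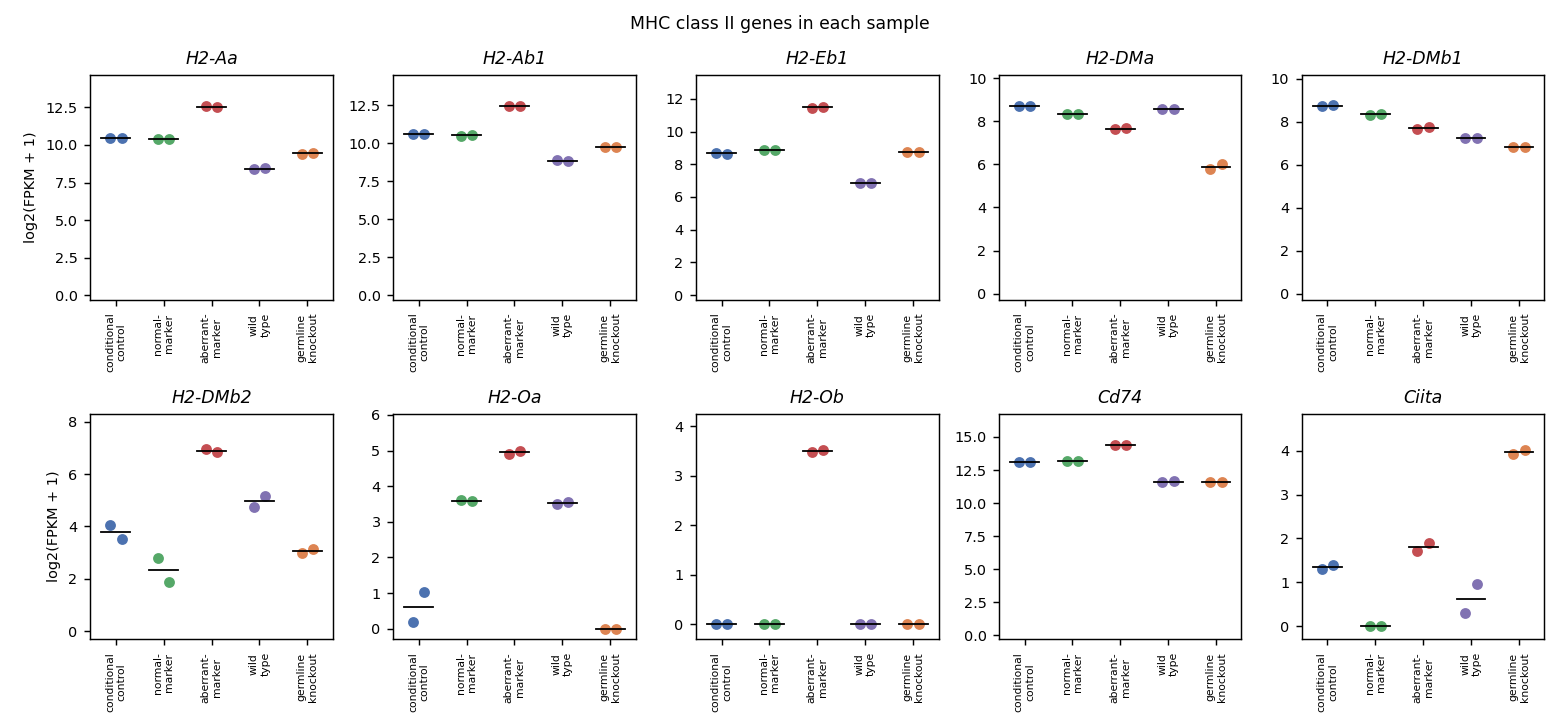
Level of each member as log2(FPKM + 1), one panel per gene with its own vertical scale, by group. Points are samples, 2 per group, and the line is their mean. The classical chains and Cd74 were highest in the aberrant-marker library, H2-DMa and H2-DMb1 were not, and Ciita was highest in the germline knockout (14.1 and 15.1 FPKM).

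The peptide exchange chains followed another order. H2-DMa measured 415 and 416 FPKM in conditional control samples, 324 and 325 with normal markers, 199 and 204 with aberrant markers, 383 and 375 in wild-type samples and 53.8 and 63.3 in germline knockouts, the last 3.44-fold below the next. H2-DMb1 measured 424 and 435 FPKM in conditional control samples, 320 and 328 with normal markers, 204 and 214 with aberrant markers, 150 and 149 in wild-type samples and 113 and 111 in germline knockouts. Both genes were thus highest in the conditional control, while the aberrant-marker library held less of each than either library of control-like macrophages in its line. H2-DMb2, a close copy of H2-DMb1 and its neighbour on the chromosome, went the other way, with 15.6 and 10.5 FPKM in conditional control samples, 5.90 and 2.66 with normal markers, 123 and 112 with aberrant markers, 25.9 and 34.8 in wild-type samples and 7.03 and 7.87 in germline knockouts. Its samples of a group differed most with normal markers (5.90 and 2.66 FPKM), and those of different groups did not overlap. The 2 transcripts are 94.4% identical over 1255 aligned bases with an identical run of 221 bases, so reads were divided between them by estimation. Their sum, which hardly depends on that division, was 443 FPKM in conditional control samples, 328 with normal markers, 327 with aberrant markers, 180 in wild-type samples and 119 in germline knockouts. The span of H2-DMa overlaps that of Brd2 in the RefSeq annotation and the libraries do not mark strand, so that reads of the overlap cannot be told apart. Brd2 was also lower in the germline knockout (19.7 FPKM) than in the wild type (39.2 FPKM), and was highest with aberrant markers (55.5 FPKM), where H2-DMa was lower than in the controls. Its part in the H2-DMa level was not tested.

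The H2-O chains, inhibitors of H2-DM, were low everywhere. H2-Oa measured 0.129 and 1.06 FPKM in conditional control samples, 11.2 and 11.0 with normal markers, 28.9 and 30.9 with aberrant markers and 10.3 and 10.7 in wild-type samples, and was listed at 0 in both germline knockout samples. One fragment on this transcript was worth 0.0983 to 0.122 FPKM, so that the lower conditional control sample rested on about 1 fragment. BC051537, which overlaps H2-Oa in the RefSeq annotation, was at 7.18 FPKM with aberrant markers and at 0 or under 0.001 FPKM elsewhere, and its part in the H2-Oa level was not tested. H2-Ob was detected in the aberrant-marker library only, at 10.2 and 10.5 FPKM, and was listed at 0 in the other 8 samples, where 1 fragment would be worth 0.0401 to 0.0498 FPKM. B cells carry both chains, and the B cell markers Cd79a and Pax5 were listed at 0 in every library.

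The transactivator Ciita did not share the order of the genes it controls. It measured 1.46 and 1.62 FPKM in conditional control samples, 2.30 and 2.74 with aberrant markers, 0.232 and 0.939 in wild-type samples and 14.1 and 15.1 in germline knockouts, and all 6 of its transcripts were listed at 0 in both normal-marker samples. The normal-marker library therefore combined no listed Ciita with levels of H2-Aa, H2-Ab1 and Cd74 that were 1.02- to 1.07-fold from the conditional control, and the germline knockout combined the highest Ciita with the second lowest H2-Aa and H2-Ab1. One fragment on the Ciita transcripts of known length was worth 0.0178 to 0.0336 FPKM. Such zeros were common among low genes. Of genes averaging 1 to 3 FPKM over 2 samples of different groups, 28.3% to 39.7% were at 0 in 1 of them. Within groups this was 0.0960% to 0.196%. A listed 0 for a low gene in 1 library therefore does not establish that its RNA was absent from the cells. The predicted transcript of Ciita, listed at 0 or under 0.001 FPKM in the other 4 libraries, took 23.8% of the level in the germline knockout. Dexi, which overlaps Ciita in the RefSeq annotation, was at 33.4 FPKM in the germline knockout and 26.6 in the wild type, and its part in the Ciita level was not tested.

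The promoters of class II genes carry a conserved module in which an X box, bound by the RFX complex, is followed by a Y box, an inverted CCAAT element bound by NF-Y, and Ciita acts through the factors on it. RefSeq promoter windows (GRCm38.p6, 250 bases before to 50 after the start) were matched for 7 of the 10 members, in 8 windows, and H2-Ab1, Cd74 and Ciita were not matched. All 7 held the Y box core GATTGG on one of the strands, as did 16.1% of 32851 windows of the same length. The X box core searched, AACNGATG preceded by G and any base, was in 2 of the 7 (H2-Eb1 and H2-DMb1) and in 0.782% of all windows. An X core followed on the same strand by a Y core, 20 to 45 bases from start to start, was found in 6 of the 32851 windows (0.0183%), and 3 of these belonged to the class II genes H2-Eb1, H2-DMb1 and H2-Eb2, with spacings of 31, 32 and 31 bases. A match is a description of letters and not a mapped binding site, and a mismatch to this core says only that these letters are not in the window. The stretches below run from 140 to 26 bases before the start, 5′ to 3′ on the gene's strand. Cores on that strand are in capitals, and any on the other strand are not marked. H2-Eb1 and H2-DMb1 are shown for the module, and the other 4 for the Y core at 44 to 91 bases before the start, without a match to the X core. H2-DMa is left out, because its Y core on the gene's strand lies outside this stretch. That core is in its second window, 199 bases before the start.
H2-Eb1, chr17:34305727-34305841, plus strand: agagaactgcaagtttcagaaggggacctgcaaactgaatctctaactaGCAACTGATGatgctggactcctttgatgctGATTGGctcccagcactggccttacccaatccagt
H2-DMb1, chr17:34153051-34153165, plus strand: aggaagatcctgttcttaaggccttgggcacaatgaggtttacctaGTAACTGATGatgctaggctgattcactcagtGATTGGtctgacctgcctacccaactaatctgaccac
H2-DMb2, chr17:34145109-34145223, plus strand: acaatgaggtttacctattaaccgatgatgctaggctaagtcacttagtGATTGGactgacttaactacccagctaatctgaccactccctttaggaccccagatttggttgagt
H2-Aa, chr17:34287849-34287963, minus strand: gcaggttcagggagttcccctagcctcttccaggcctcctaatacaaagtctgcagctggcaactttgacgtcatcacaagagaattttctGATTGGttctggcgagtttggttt
H2-Oa, chr17:34092239-34092353, plus strand: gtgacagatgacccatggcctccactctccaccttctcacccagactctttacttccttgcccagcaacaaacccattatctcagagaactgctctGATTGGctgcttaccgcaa
H2-Ob, chr17:34238765-34238879, plus strand: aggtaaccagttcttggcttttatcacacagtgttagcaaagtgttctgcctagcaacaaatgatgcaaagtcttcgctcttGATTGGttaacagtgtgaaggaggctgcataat

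H2-Eb1 and H2-DMb1 held both cores at nearly the same spacing. In the aberrant-marker library H2-Eb1 was 7.06-fold higher and H2-DMb1 2.05-fold lower than in the conditional control. The H2-DMb1 value depends on how reads were divided with H2-DMb2, and the sum of both genes was 327 against 443 FPKM. The part of the module in these levels was not tested.

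How far the libraries differed was read with a rule of size. A gene was called where the libraries were at least 2 log2 units (4-fold) apart on the log2(FPKM + 1) scale, in the mean and in every pairing of samples, and if the higher library reached 20 FPKM. Differences of low genes come out too small on this scale. Of 11336 genes with 1 FPKM or more in at least 2 samples, all 10 members were included, H2-Ob through the aberrant-marker library alone.

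Aberrant-marker macrophages held more RNA of the I-A chains and of H2-Eb1, of H2-DMb2 as estimated, and of H2-O than the conditional control. Called higher were 4 of 10 members, H2-Aa by 2.11, H2-Eb1 by 2.82, H2-DMb2 by 3.08 and H2-Oa by 4.28 log2 units, against 4.09% of all genes called higher. The H2-DMb2 value depends on how reads were divided with H2-DMb1, and the sum of both genes was 327 against 443 FPKM. H2-Ab1, 1.82 log2 units higher, and H2-Aa lay just on either side of the threshold. H2-Ob, 3.50 log2 units higher, was under the floor of 20 FPKM, and Cd74 was 1.33 log2 units higher. Called lower were 0 of 10, against 3.76% of all genes. H2-DMa and H2-DMb1 were lower by less than the threshold, with differences of -1.04 and -1.04. The median difference of the members was 1.97 log2 units and that of all genes 0.

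The choice of control changed the members called. With the wild type in place of the conditional control, H2-Aa (4.12 log2 units), H2-Ab1 (3.57), H2-Eb1 (4.60) and Cd74 (2.80) were called higher, 4 of 10 against 4.75% of all genes, and 0 were called lower against 3.91%. H2-DMb2 (1.92) and H2-Oa (1.43) then missed the call. H2-Aa and H2-Eb1 were called with both controls. The difference of H2-DMb1 turned from -1.04 to 0.48.

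Markers of other cells were high in the same library. Conventional dendritic cells, which carry much class II, were represented by 12 markers, of which 10 were at 1 FPKM or more in the aberrant-marker library and 4 in the conditional control, with summed levels of 2205 and 2242 FPKM against 26.2 and 27.3. Of these 12, Ccr7 was the most abundant in the aberrant-marker library (1564 FPKM) and Xcr1 was at 0 or under 0.001 FPKM there, while Clec9a was at 0.620 FPKM. Of 10 T cell markers, 8 reached 1 FPKM in this library and 1, Cd2, did in the conditional control, with Cd3e at 17.7 FPKM and Cd8a and Cd5 at 0 or under 0.001 FPKM. Cd3g (24.1 FPKM), Lck (29.6), Lat (37.9) and Il7r (108) were called higher and Cd2 (45.7 and 330 FPKM) lower. These were 4 and 1 of 8 compared, against 4.09% and 3.76% of all genes. The summed level of the list was 294 and 298 FPKM against 332 and 329, and without Cd2 it was 251 and 249 against 0.484 and 0.497. Of 9 monocyte and interstitial macrophage markers 7 reached 1 FPKM with aberrant markers and 5 in the conditional control. Summed levels were 948 and 945 FPKM against 183 and 178, with Cx3cr1 and Ly6c2 at 0 or under 0.001 FPKM with aberrant markers. Mrc1 made most of the control sum and was itself lower with aberrant markers (36.3 and 167 FPKM). Of 11 alveolar macrophage markers 7 were called lower with aberrant markers, against 3.76% of all genes. Their sums were 8969 and 8841 FPKM against 15867 and 15650. Without Chil3 these were 625 and 603 FPKM against 6622 and 6562. The part of these lists in the class II levels was not tested. In bulk RNA, more cells of a type and more RNA per cell cannot be told apart.

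**Figure D2:**
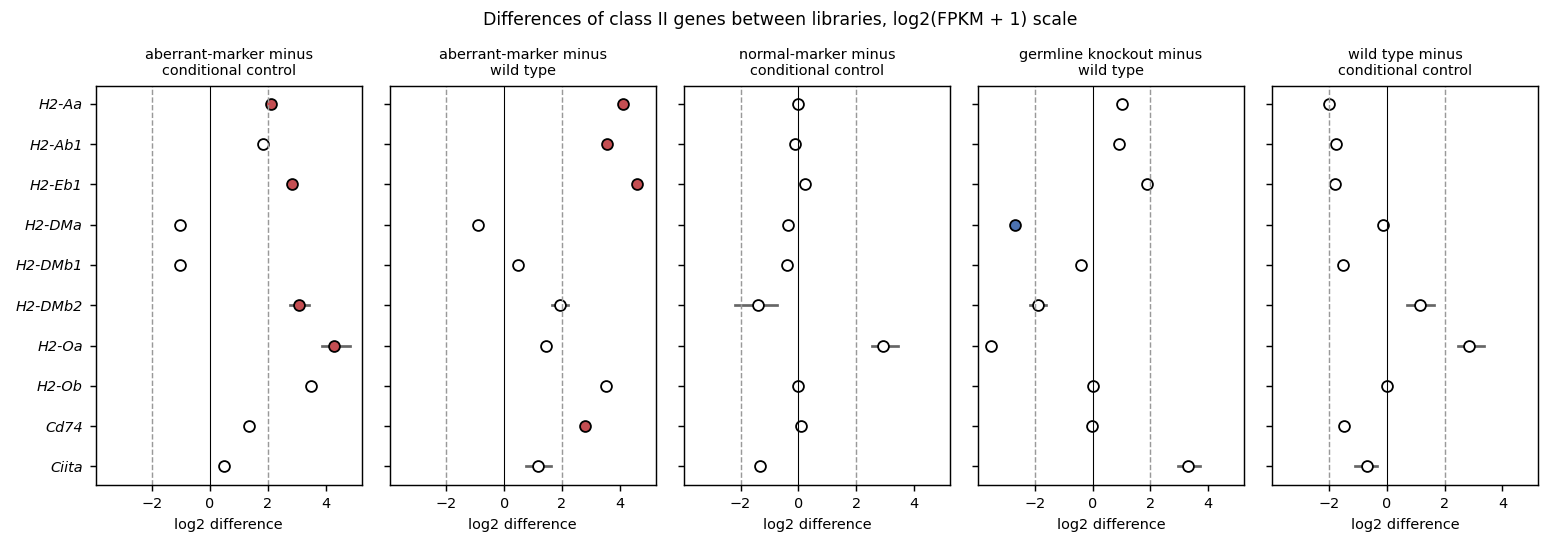
Difference of each member between libraries on the log2(FPKM + 1) scale, in 5 comparisons. Points are differences of means, horizontal bars span the pairings of samples, dashed lines mark 2 log2 units, and filled points are called (red higher, blue lower). The classical chains were 1.75 to 2.01 log2 units lower in the wild type than in the conditional control, and the aberrant-marker differences are larger by that amount against the wild type.

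Aberrant-marker and normal-marker macrophages come from knockout mice of 1 line. Between them 3 of 10 members were called higher, H2-Aa (2.14 log2 units), H2-Eb1 (2.60) and H2-DMb2 (4.49), against 4.02% of all genes, and 0 were called lower against 3.26%. The sum of H2-DMb2 and H2-DMb1, which hardly depends on how reads were divided between them, was 327 against 328 FPKM. H2-Ab1 was 1.92 and Cd74 1.23 log2 units higher. This comparison shares the aberrant-marker samples with those above.

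In normal-marker macrophages the classical chains and Cd74 were within 1.16-fold of the conditional control, while H2-Oa, H2-DMb2 and Ciita were further apart. No member was called, and at 0.935% of all genes called higher and 0.838% lower this count says nothing about the members. The median difference of the members was -0.06 log2 units. H2-Aa, H2-Ab1, H2-Eb1 and Cd74 differed by -0.03, -0.10, 0.21 and 0.10 log2 units. The direction for H2-Aa turned to 0.04 with median-of-ratios scaling. H2-Oa was 2.92 log2 units higher, short of the floor, and differed by 0.07 from the wild type. H2-DMb2 differed by -1.41 and Ciita by -1.35 log2 units.

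Germline knockout macrophages held less H2-DMa and more of the classical chains than the wild type. H2-DMa was the only member called, with a difference of -2.67 log2 units (6.47-fold lower), 1 of 10 against 3.36% of all genes called lower. It was also called against the conditional control (-2.81). H2-Oa, at 10.5 FPKM in the wild type and listed at 0 in the knockout, was under the floor, and H2-DMb2 differed by -1.89. Without wild-type sample 4, H2-DMb2 was called too (-2.08). None was called higher, against 2.73% of all genes. H2-Eb1 was 1.88, H2-Aa 1.01 and H2-Ab1 0.90 log2 units higher, Cd74 differed by -0.02, and Ciita was 3.30 log2 units higher but under the floor at 14.6 FPKM. With median-of-ratios scaling H2-Eb1 passed the threshold (2.03) and the difference of Cd74 was 0.12. Against the conditional control, H2-Aa was 2.00-fold and H2-Ab1 1.81-fold lower in the germline knockout, and H2-Eb1 1.07-fold higher. Of 9 monocyte and interstitial macrophage markers, 7 were at 1 FPKM or more in the germline knockout and 1, Mrc1, in the wild type. Summed levels were 504 and 500.3 FPKM against 212 and 209. Mrc1 made nearly all of the wild-type sum and was itself lower in the germline knockout (114 and 211 FPKM). Ly6c2 and Cx3cr1 were at 0 or under 0.001 FPKM in both. Of the 12 dendritic cell markers 4 reached 1 FPKM in the germline knockout and 3 in the wild type, with sums of 109 and 106 FPKM against 28.2 and 22.8, mostly from Ccr7 (71.6 and 0.0333 FPKM) with Fscn1 (9.52 FPKM and listed at 0). Of 10 T cell markers 2 reached 1 FPKM in the germline knockout, Il7r and Cd2, and 8 were at 0 or under 0.001 FPKM. In the wild type 1, Cd2, reached 1 FPKM. Il7r was higher in the knockout (41.7 and 0.0156 FPKM) and Cd2 lower (24.9 and 455 FPKM). Summed levels were 67.2 and 66.0 FPKM against 447 and 464. Of 11 alveolar macrophage markers 8 reached 1 FPKM in the germline knockout and 11 in the wild type. Their summed level was higher in the knockout (47550 and 47775 FPKM against 17760 and 17973) through Chil3 (46574 and 9278 FPKM), and without Chil3 it was lower (1099 and 1078 against 8563 and 8614 FPKM). The part of these lists in the class II levels was not tested.

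The wild type held less RNA of most class II genes than the conditional control. H2-Aa was 4.03-fold, H2-Ab1 3.37-fold, H2-Eb1 3.47-fold, H2-DMb1 2.87-fold and Cd74 2.77-fold lower in the wild type than in the conditional control, and H2-DMa differed by -0.13 log2 units. H2-DMb2 (30.3 and 13.1 FPKM) and H2-Oa (10.5 and 0.594 FPKM) went the other way, 1.16 and 2.85 log2 units higher in the wild type. No member was called, against 0.935% of all genes higher and 1.17% lower. H2-Aa missed the call by 1 pairing of samples (-1.99 log2 units) and was called (-2.02) without wild-type sample 9. The median difference of the members was -1.07 log2 units, and that of all genes 0. Mouse line, the genes of the sex chromosomes and library cannot be told apart here.

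Levels are per length, so that members can be set side by side. The scaling of a library cancels in a ratio taken within a sample, so ratios between members could be compared across libraries. H2-Eb1 stood at 0.511 of H2-Ab1 with aberrant markers and 0.494 in the germline knockout, and at 0.248 to 0.318 in the other 3. Cd74 was 1.90 and 1.97 times the sum of H2-Aa and H2-Ab1 in the same 2 libraries, and 2.93 to 3.87 times in the others. Counting only the higher Cd74 transcript lowered these to 1.40 and 1.35, against 1.97 to 2.49. The H2-DM genes made 0.0457 of that sum with aberrant markers and 0.114 in the germline knockout, against 0.231 to 0.689. The aberrant-marker and germline knockout libraries thus had more H2-Eb1 for each H2-Ab1, and less Cd74 and H2-DM for each I-A chain, than the other 3. H2-O over H2-DM separated those 2, at 0.0762 in the aberrant-marker library and 0 in the germline knockout, with 0.0170 in the normal-marker, 0.0188 in the wild-type and 0.000690 in the conditional control library. The 0 rests on listed zeros of low genes, which do not establish that the RNA was absent. The conditional control value rests on few fragments, and its samples gave 0.000151 and 0.00123. H2-Aa over H2-Ab1 ranged from 0.736 in the wild type to 1.08 in the aberrant-marker library.

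**Figure D3:**
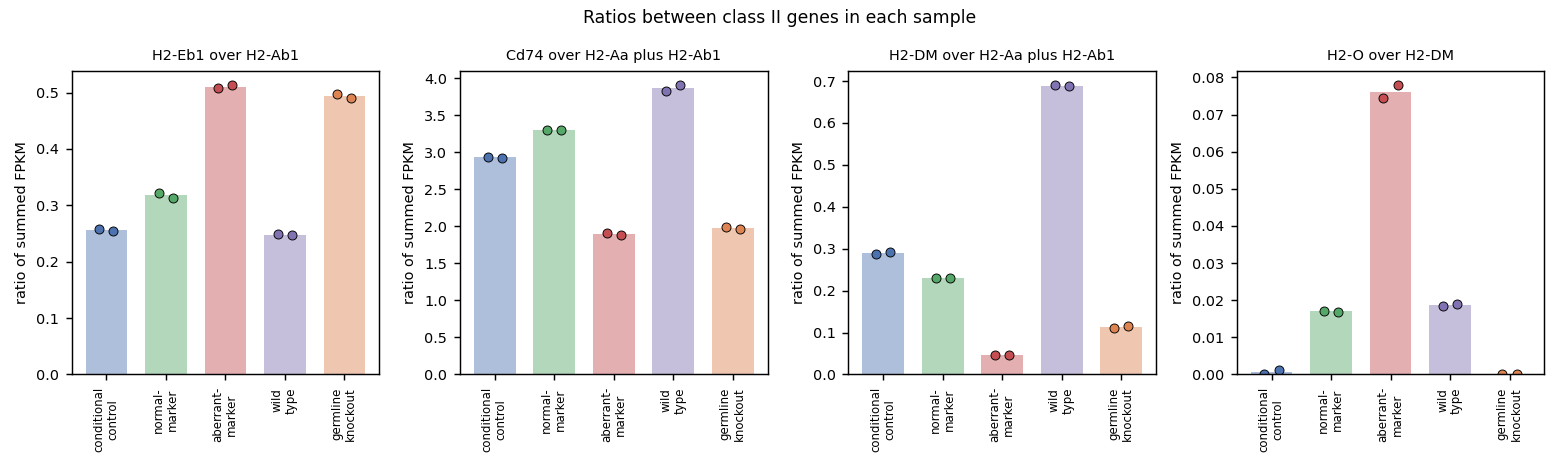
Ratios of summed FPKM between members by group. Bars are means, points are the 2 samples, and every axis starts at 0. The aberrant-marker and germline knockout libraries share a high H2-Eb1 to H2-Ab1 ratio and low Cd74 and H2-DM ratios, and lie at opposite ends of H2-O over H2-DM (0.0762 and 0). The 0 rests on listed zeros of low genes.

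Other genes of the pathway were counted from 3 lists, 32 genes in the table and 31 compared. In the aberrant-marker library against the conditional control, 8 of 31 were called higher and 0 lower, against 4.09% and 3.76% of all genes. Of 7 costimulatory genes, 5 were called higher. The largest were Cd40, the receptor of T cell help (136 FPKM and listed at 0 in the control), Pdcd1lg2, a ligand of PD-1 (122 and 1.14 FPKM), Cd80 (20.9 and 1.76 FPKM) and Cd86 (111 and 13.3 FPKM), both ligands of CD28. Of 12 loading and turnover genes, 2 were called, Cd83, which protects class II from ubiquitination (1276 and 18.5 FPKM), and the protease inhibitor Cst3 (13000 and 1063 FPKM). The ubiquitin ligase genes March1, which acts on class II (0.879 and 5.68 FPKM), and March8 (5.99 and 23.2 FPKM) were lower without being called. Of 12 transcription genes only Irf4 was called (61.1 and 1.58 FPKM). The RFX subunit genes Rfxap (18.7 and 15.7 FPKM), Rfxank (18.9 and 5.13 FPKM) and Rfx5 (0.237 FPKM and listed at 0) were not. H2-Eb2, next to H2-Eb1 on the chromosome, was at 8.78 FPKM in the aberrant-marker library and at 0 or under 0.001 FPKM elsewhere, as H2-Ob was.

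In the germline knockout against the wild type, 2 of the 31 were called higher and 0 lower, against 2.73% and 3.36% of all genes. Both were lysosomal proteases. Lgmn, an asparaginyl endopeptidase, was at 377 and 72.9 FPKM and the cathepsin gene Ctsl at 843 and 187 FPKM. Ctss, the cathepsin that trims the invariant chain, was at 8189 and 3700 FPKM, short of the threshold. Rfx5 was at 11.5 and 5.46 FPKM. Of the 31, 0 were called between the normal-marker library and the conditional control, against 0.935% of all genes higher and 0.838% lower. Only 1, Icosl, was called lower in the wild type than in the conditional control (3.53 and 21.6 FPKM). There 0.935% of all genes were called higher and 1.17% lower. Both counts are near these shares and say nothing about the lists. Between the aberrant-marker and normal-marker libraries 7 of the 31 were called higher and 0 lower, against 4.02% and 3.26% of all genes.

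MHC class I presentation is the machinery for peptides from the cytosol. Of its 14 genes 0 were called in the 5 comparisons without the wild type as a second control. In these, 0.838% to 4.09% of all genes were called in a direction, so 0 of 14 says nothing about the list. The median was 0.38 log2 units in the aberrant-marker library against the conditional control, beside 1.97 for the class II members. In the germline knockout against the wild type the medians were 0.26 and -0.01 log2 units, and in the normal-marker library against the conditional control 0.24 and -0.06. With aberrant markers and in the conditional control, the class I heavy chain gene H2-K1 was at 1903 and 799 FPKM and B2m at 5099 and 2807 FPKM. Between the same libraries, the peptide transporter gene Tap1 (120 and 30.9 FPKM) was just short of the call. With the wild type as control it and Tap2 were called higher, 2 of 14 against 4.75% of all genes. Nlrc5, the class I counterpart of Ciita, was apart by more than the threshold but under the floor. A difference between the lists was not tested.

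**Figure D4:**
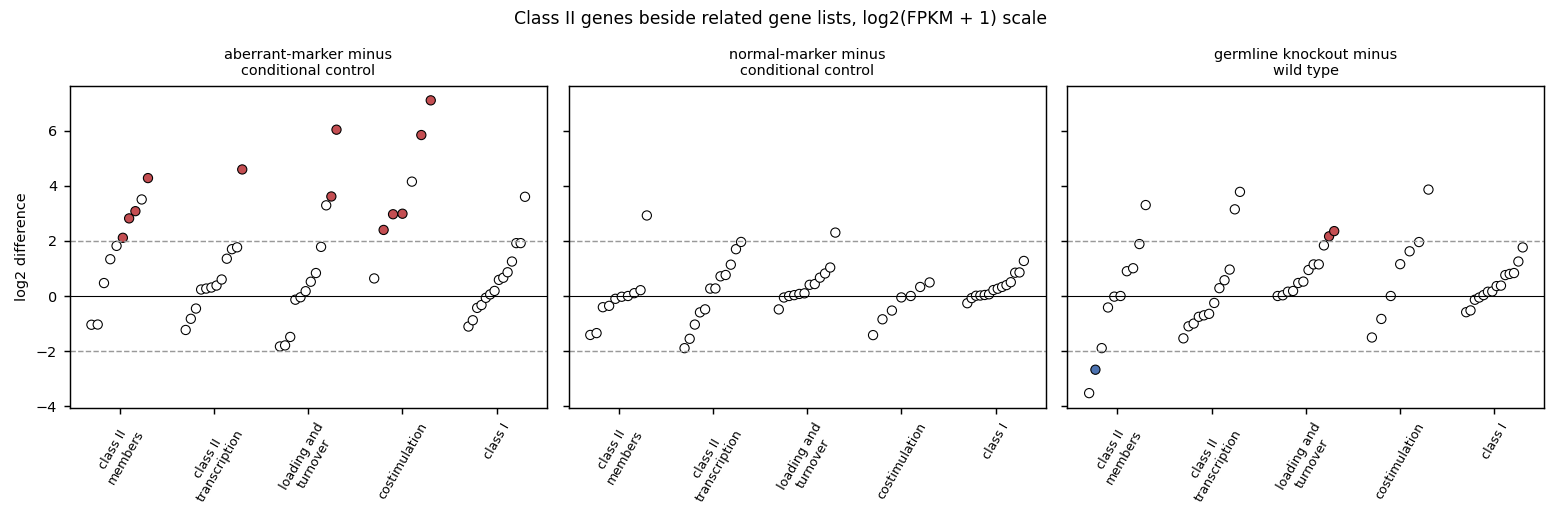
Differences on the log2(FPKM + 1) scale for the members and for 4 lists of related genes, in 3 comparisons. Each point is a gene, ordered by value within its list, dashed lines mark 2 log2 units and filled points are called (red higher, blue lower). In the aberrant-marker comparison 4 of 10 members, 5 of 7 costimulatory genes and 0 of 14 class I genes were called higher, against 4.09% of all genes. The class I count is near that share.

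The gene whose pattern over the 5 libraries was most like the mean of H2-Aa, H2-Ab1 and Cd74 was Tap1, by Euclidean distance of centred log2(FPKM + 1) values (0.51) among 1459 other genes that reached 100 FPKM in a library. Tap1 measured 30.9 FPKM in conditional control samples, 32.3 with normal markers, 120 with aberrant markers, 14.0 in the wild type and 15.7 in germline knockouts. Next were Id2 (0.65), Vopp1 (0.72), Laptm4b (0.73), Idi1 (0.80) and Erdr1 (0.82). Of these 6 genes, all but Id2 reached 100 FPKM in the aberrant-marker library alone, where the 3 genes of the mean are highest too, so the requirement itself favours such patterns. The distance of the members outside the mean was 1.20 for H2-Eb1, 1.75 for H2-Ob, 2.41 for H2-DMb1, 3.20 for H2-DMb2, 3.36 for H2-DMa, 3.77 for H2-Oa and 4.19 for Ciita. These distances describe 5 libraries only.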

How the data were processed

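Per the labels' protocols, 100 pg of RNA per sample were amplified (SMARTer, 18 PCR cycles) and made into libraries without molecular identifiers or strand. The deposited table holds FPKM made by the authors for RefSeq transcripts. Bowtie 1.1.2 and eXpress 1.5.1 are named in the submitters' processing notes with no role, and the header names no unit. Taking the values as FPKM rests on eXpress, on column sums of 625660 to 668491 and on low values that step with transcript length. The genome build is not given in the sources used here. All 10 columns matched a sample title.

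FPKM was summed per Entrez gene. Depth was read from these steps with GENCODE M21 lengths and is approximate. The limma test kept in reserve was not used, because the samples of a group were nearly repeats. Members, lists, thresholds and the named-gene rule (all members, up to 4 called genes per list, and the 6 nearest patterns) were chosen with earlier results of these data known. The ratios with H2-Eb1 or of H2-DM to classical chains, and uncalled or other list genes, were chosen after their values were seen. The size rule was tested on simulated data. Calculations used Python 3.11.15, pandas 2.3.3, numpy 2.4.6, scipy 1.17.1 and Biopython 1.88. Alternatives were a pseudocount of 0.1, no filter, a threshold of 1 log2 unit, no floor, median-of-ratios scaling, the highest transcript, the other control and each sample left out. One gene of the B cell marker list is not reported here.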

Additional observations from a re-analysis of the deposited data

Results flagged for a closer look

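The effects in the conditional and in the germline line went opposite ways in every pairing of samples, and differed by 2 log2 units or more, for 2 members. For Cd74 they also had opposite signs in every pairing (1.33 and -0.02), with a difference of 1.36, under that size. The small germline difference of Cd74 turned positive with median-of-ratios scaling, as given above, so this opposition depends on the scaling. Samples of a group are near repeats, so that the pairings add little. The difference between the effect in aberrant-marker macrophages (against the conditional control) and that in the germline knockout (against the wild type) was 7.80 log2 units for H2-Oa, from 4.28 and -3.52, and 4.97 for H2-DMb2, from 3.08 and -1.89. The difference was not tested, since each group is 1 library. With a pseudocount of 0.1, an alternative added after seeing the data, the values were 12.2 and 5.17, and with median-of-ratios scaling 7.71 and 4.88. H2-Oa rested on few fragments in the conditional control and was listed at 0 in the germline knockout. The H2-DMb2 values depend on how reads were divided with H2-DMb1.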

How the results depend on the processing

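No called difference of a member changed direction under any alternative run. With the threshold at 1 log2 unit in place of 2, members called went from 4 to 7 for aberrant-marker against conditional control, from 3 to 6 against normal-marker, from 1 to 3 for germline knockout against wild type and from 0 to 5 for wild type against conditional control. Of all genes, 17.7%, 17.5%, 15.1% and 7.96% were called in these comparisons at that threshold. Other class II pathway genes called in these comparisons were then 13, 15, 7 and 3, with 1 for normal-marker against conditional control, and class I genes 4, 2, unchanged at 0, and 2. With no floor, members called were 1 for normal-marker and 1 for wild type against conditional control and 3 for germline knockout against wild type, where 11.8%, 12.9% and 19.6% of all genes were called. H2-Ob (3.50 log2 units) was then also called for aberrant-marker against conditional control and against normal-marker, where 22.2% and 22.1% of all genes were called. Pathway genes were then 1 for normal-marker, 12 for aberrant-marker against normal-marker, 5 for germline knockout and 3 for wild type, and class I genes 1 in each aberrant-marker comparison of the main set. Median-of-ratios scaling gave 2 members for germline knockout against wild type, with 5.80% of all genes called. Leaving out 1 sample gave 1 to 2 members in that comparison, 0 to 1 members and 0 to 1 class I genes between the controls, and 4 to 4 and 3 to 3 members in the aberrant-marker comparisons. The cause was not tested. No paired analysis was possible because the sample numbers of the groups are not shared. Low levels limit the values of H2-DMb2, H2-Oa, H2-Ob and Ciita, and 1 library per group limits every comparison.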
